A study of Mus musculus with 12 samples.

Results

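The data compare G1E-ER4 cells that carried the active fragment of SREBP2 with the same cells that carried an empty vector, neither of them given β-estradiol (EST), across all genes. The members are every gene of the deposited count table, which lists 17210, and the 11177 that passed a filter on low counts were tested. Of the 12 libraries in the series, 6 enter the comparison, 3 in the group here called SREBP2 and 3 in the group called Vector. G1E-ER4 is a mouse line of immature red blood cell precursors whose own Gata1 gene was disrupted and which instead makes GATA1 fused to the part of the estrogen receptor that binds hormone. That deletion and that fusion are shared by all groups, controls included. Cells were transduced for 24 h with a retrovirus that was empty or that carried residues 1 to 468 of SREBP2, and were then kept for 6 h without EST (labelled untreated, vehicle in the methods) or with it. The Vector+EST group, 3 libraries from empty-vector cells given EST for 6 h, is set beside the comparison where its values differ from or resemble those of SREBP2. Its EST dose is given as 500 nM in the protocol of the samples and as 200 nM in the design text. The labels give the strain as C57BL/6J and the cell type as embryonic stem cells, and do not say whether the 3 libraries of a group came from separate cultures. The figure legend that covers these libraries speaks in general of independent experiments. Unless the libraries are these, p-values measure only a spread that may be technical. Libraries are named by the numbers of their columns in the deposited counts (Vector 1, 4 and 5, SREBP2 1, 3 and 5), and values are listed in that order.

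SREBP2 is a transcription factor made as a membrane protein of the endoplasmic reticulum, where SCAP and the INSIG proteins hold it while sterols are plentiful. When sterols run low it is carried to the Golgi, where proteases cut free its amino-terminal part, which enters the nucleus and binds sterol response elements in the promoters of genes for cholesterol synthesis and uptake, usually beside sites for the factors NF-Y and Sp1. The fragment introduced here lacks the membrane anchor and so needs no cut. GATA1, the factor that drives red cell maturation, is the protein that EST switches on in these cells.

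The library totals ran from 18700893 to 19152254 estimated counts over the 12 libraries, so that 3 counts, taken here as the smallest detected level, correspond to 0.153 to 0.163 CPM (counts scaled to a common library size). SREBP2 1 stood apart from the other SREBP2 libraries. Its root mean square distance to them was 0.177 and 0.192 on the log2 scale over 8554 genes, against 0.108 between SREBP2 3 and SREBP2 5, and its nearest library was one of the SREBP2+EST group at 0.128. The other SREBP2 libraries were close to SREBP2+EST 1, at 0.0974 and 0.114, which lay farther from its own group, at 0.158 and 0.177, while SREBP2+EST 2 and 5 were 0.109 apart. The libraries numbered 1 of these groups thus each lay nearer to a library of the other group than to any of their own. The groups were kept as the column names give them, and whether these libraries carry each other's labels was not tested. If they did, 1 of the 3 SREBP2 libraries would have been given EST. All SREBP2 libraries lay 0.738 to 0.807 from Vector and 0.362 to 0.404 from Vector+EST. Where leaving out 1 library of the groups compared moved a count given for a gene list, or a median of at least 0.1 in size in either fit, by over 1.5 times, the value without that library is given too. Embryonic stem cell markers were absent or near 0: Pou5f1, Zfp42 and Tdgf1 are not listed in the count table, and the other 5 markers summed to at most 0.65 CPM in any library. Erythroid markers summed to 6417 to 6664 CPM in Vector and to 3860 to 4297 CPM in SREBP2, where 3 of the 8 tested were higher and 4 lower. Markers of other cell types were low. Fibroblast markers summed to 20.6 to 21.3 CPM in Vector and 5.45 to 7.53 CPM in SREBP2, nearly all from Col1a2, neural markers to 18.6 to 20.8 and 9.27 to 13.2 CPM, macrophage markers to 4.50 to 5.25 and 2.71 to 3.95 CPM, and lymphoid markers to 5.08 to 5.55 and 4.77 to 6.13 CPM, while endothelial and hepatocyte markers stayed at or under 1.13 CPM. In Vector+EST 1, 3 and 5 the fibroblast markers summed to 6.23, 6.11 and 36.7 CPM. In SREBP2+EST 1, 2 and 5 they summed to 21.3, 35.3 and 18.8 CPM, so on this sum SREBP2 1 and SREBP2+EST 1 each lay with their own group. The defining markers Col1a1, Dcn and Adgre1 were at or near 0 in both Vector and SREBP2. What part such cells have in the results was not tested. In bulk RNA, fewer cells of a type and less RNA per cell cannot be told apart.

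SREBP2 cells differed from Vector cells in most of the transcriptome. At an edgeR adjusted p under 0.05, 7987 of the 11177 genes changed (71.5%), 4214 of them higher with SREBP2 (37.7%) and 3773 lower (33.8%). Most of the differences were small, with a median absolute log2 fold change of 0.39 over all genes tested. Genes that changed over 2-fold were 1182 higher (10.6%) and 678 lower (6.07%), those over 4-fold 328 and 156, those over 8-fold 119 and 44, and those over 16-fold 67 and 14, so that from 2-fold to 16-fold the higher genes made up a growing share. What part genes of low counts have in that share was not tested. At or under the floor were 74 tested genes in every Vector library and 28 in every SREBP2 library. With at least 10 counts in every library compared, 873 genes were higher and 571 lower over 2-fold. Without SREBP2 1, 3904 genes were higher and 3848 lower, 1100 and 632 of them over 2-fold. Which direction held more genes depended on the settings, with 3773 higher and 4213 lower when scaled by library totals only, 3767 and 3828 with at least 10 counts in every library compared, and 3736 and 3827 without Vector 1. The median log2 fold change over all genes was 0.03, and -0.03 to 0.04 under the alternatives. Lists of genes are described below by how many members were higher or lower and by their median, to be read against these shares and this median.

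Srebf2, the gene of SREBP2 itself, stood at 370.3, 357 and 355 CPM in Vector and at 814, 837 and 797 CPM in SREBP2. The SREBP2 values were all above the Vector values (log2 fold change 1.18 ± 0.03, edgeR adjusted p = 3.69e-14). The counts do not separate the cells' own Srebf2 from the introduced fragment. The methods name no species for the retroviral construct, and a supplementary legend of the study speaks of human SREBP2 mRNA in transduced G1-ER4 cells. Srebf1, the gene of the related factor that acts mainly on fatty acid genes, rose from 147 ± 2.88 to 175 ± 9.44 CPM (log2 fold change 0.25 ± 0.05, edgeR adjusted p = 0.000106).

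Every measured gene of cholesterol synthesis was higher with SREBP2. The 9 genes that build squalene from acetyl-CoA by way of mevalonate all rose (6 over 2-fold, median log2 fold change 1.46), and so did the 13 genes that turn squalene into lanosterol and cholesterol (12 over 2-fold, median 1.75). No library of one group overlapped the other for any of the 22. Over all tested genes, 39.3% were higher without overlap and 35.5% lower. The rises were uneven along the pathway. The smallest was that of Sqle, squalene epoxidase and a rate-limiting step, at 319, 307 and 306 CPM in Vector and 453, 489.6 and 482 CPM in SREBP2 (log2 fold change 0.61 ± 0.04, edgeR adjusted p = 3.20e-09). Fdft1, the squalene synthase, and Idi1, the isopentenyl diphosphate isomerase, had log2 fold changes of 0.96 and 0.97. The largest rises lay among enzymes of the middle of the mevalonate pathway and of the sterol steps. Tm7sf2, a sterol C14 reductase, stood at 23.4, 23.02 and 20.2 CPM in Vector and 169, 181 and 187 CPM in SREBP2, a fold of 8.07 (log2 fold change 3.01 ± 0.06, edgeR adjusted p = 8.97e-16).

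Promoter windows are shown for 5 of these genes because they include the largest rises of the 2 lists and, of the 17 genes with a window, the only one with a match to the core of a sterol response element. Each runs from 250 bases before to 50 after an annotated start in the RefSeq promoter table for GRCm38.p6, 5′ to 3′ on the strand of the gene. Capitals mark the NF-Y box (CCAAT, or ATTGG on the other strand) and the sterol response element core TCACNCCAC. The windows are Hmgcs1 at chr13:119690101-119690400 (plus strand), Tm7sf2 at chr19:6067801-6068100 (minus), Ebp at chrX:8193463-8193762 (minus), Lss at chr10:76531355-76531654 (plus) and Pmvk at chr3:89454291-89454590 (plus).
Hmgcs1: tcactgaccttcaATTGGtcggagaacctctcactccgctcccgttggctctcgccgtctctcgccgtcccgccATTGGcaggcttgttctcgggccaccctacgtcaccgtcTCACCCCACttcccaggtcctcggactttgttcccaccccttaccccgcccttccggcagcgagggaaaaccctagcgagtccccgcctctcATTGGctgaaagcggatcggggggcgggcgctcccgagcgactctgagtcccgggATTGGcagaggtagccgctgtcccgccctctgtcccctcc
Tm7sf2: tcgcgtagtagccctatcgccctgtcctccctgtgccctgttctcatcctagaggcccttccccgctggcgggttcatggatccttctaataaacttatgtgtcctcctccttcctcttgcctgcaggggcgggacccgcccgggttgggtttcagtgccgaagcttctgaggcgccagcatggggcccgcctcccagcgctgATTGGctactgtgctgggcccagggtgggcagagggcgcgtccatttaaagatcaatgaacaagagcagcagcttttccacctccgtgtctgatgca
Ebp: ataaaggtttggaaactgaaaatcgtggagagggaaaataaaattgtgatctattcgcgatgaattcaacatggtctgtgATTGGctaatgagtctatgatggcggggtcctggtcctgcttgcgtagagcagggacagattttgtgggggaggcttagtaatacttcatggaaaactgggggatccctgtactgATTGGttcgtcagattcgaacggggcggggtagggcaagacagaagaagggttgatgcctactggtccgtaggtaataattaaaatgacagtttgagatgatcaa
Lss: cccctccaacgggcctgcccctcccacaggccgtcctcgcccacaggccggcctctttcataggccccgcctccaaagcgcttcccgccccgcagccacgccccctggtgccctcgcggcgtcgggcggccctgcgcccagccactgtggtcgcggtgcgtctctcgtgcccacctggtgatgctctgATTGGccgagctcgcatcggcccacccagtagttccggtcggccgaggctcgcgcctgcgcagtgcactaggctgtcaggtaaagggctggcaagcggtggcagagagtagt
Pmvk: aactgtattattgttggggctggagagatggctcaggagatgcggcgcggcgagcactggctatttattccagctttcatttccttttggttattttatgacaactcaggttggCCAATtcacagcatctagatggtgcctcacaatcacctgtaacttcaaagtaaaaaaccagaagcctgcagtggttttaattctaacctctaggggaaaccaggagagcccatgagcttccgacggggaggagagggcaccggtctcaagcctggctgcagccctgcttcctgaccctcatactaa
The Hmgcs1 window holds 4 NF-Y boxes and 1 sterol response element core, that of Ebp holds 2 NF-Y boxes, and those of Tm7sf2, Lss and Pmvk hold 1 each. A match to these letters is a description of the window and not a measured binding site.

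The genes with those windows rose as follows. Ebp, the sterol isomerase, stood at 52.7, 50.4 and 46.9 CPM in Vector and 378, 395 and 413 CPM in SREBP2 (log2 fold change 2.98 ± 0.06, edgeR adjusted p = 4.84e-16). Lss, which closes the ring to lanosterol, stood at 189, 187 and 183 CPM in Vector and 1013, 1063 and 1086 CPM in SREBP2 (log2 fold change 2.50 ± 0.04, edgeR adjusted p = 1.86e-16). Both were several-fold higher in each SREBP2 library than in any Vector library. Pmvk, the phosphomevalonate kinase, stood at 73.9, 69.5 and 67.7 CPM and 370.1, 394 and 424 CPM (log2 fold change 2.49 ± 0.06, edgeR adjusted p = 4.05e-15), and Mvd, the decarboxylase of the following step, rose from 114 ± 5.52 to 511 ± 18 CPM (log2 fold change 2.17 ± 0.05, edgeR adjusted p = 6.38e-15). Mvk, the mevalonate kinase before them, rose from 59.6 ± 3.43 to 226 ± 6.35 CPM (log2 fold change 1.92 ± 0.05, edgeR adjusted p = 1.62e-14). Hmgcs1, which makes HMG-CoA, rose from 749 ± 9.59 to 1785 ± 49.98 CPM (log2 fold change 1.25 ± 0.04, edgeR adjusted p = 3.49e-14), a log2 fold change below that of the kinases. Among the other members with a fold over 2, folds lay between 2.302 for Lbr, a further sterol C14 reductase that also holds chromatin at the nuclear envelope, and 4.39 for Hsd17b7, which reduces the keto group left by demethylation.

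**Figure D1:**
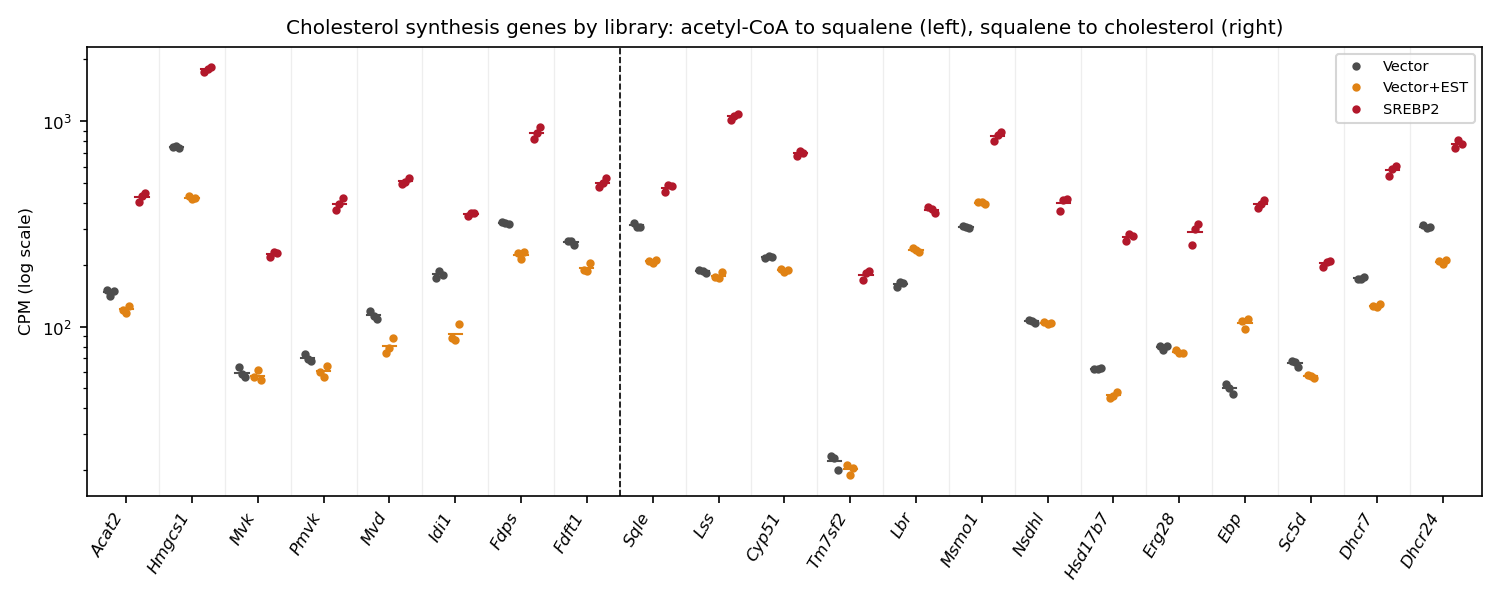
CPM on a log axis for 21 of the 22 genes of cholesterol synthesis, 1 point a library for Vector, Vector+EST and SREBP2, with a bar at each group mean. In each gene the 3 SREBP2 points lie above the 3 Vector points, from a fold of 1.53 for Sqle to 8.07 for Tm7sf2.

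Genes that control sterol supply moved less evenly. Of 16 tested, 13 were higher, 2 lower and 1 did not pass the test (median log2 fold change 0.85). Without SREBP2 1 or without Vector 1, 1 was lower. Npc2, which carries cholesterol out of lysosomes, rose from 68.02 ± 2.08 to 332 ± 15.4 CPM (log2 fold change 2.29 ± 0.05, edgeR adjusted p = 1.26e-15), and its partner Npc1 rose from 14.03 ± 1.62 to 20.5 ± 1.73 CPM (log2 fold change 0.55 ± 0.09, edgeR adjusted p = 2.64e-05). Stard4, a sterol carrier, rose from 206 ± 2.72 to 507 ± 13.8 CPM, Scarb1, the HDL receptor, from 160.0 ± 2.22 to 259 ± 32.9 CPM, and Rnf145, a ubiquitin ligase that acts on the SREBP pathway, from 122 ± 4.18 to 352 ± 13.8 CPM.

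Among the proteins that hold or release SREBP, Scap was lower, at 119, 121 and 114 CPM in Vector and 85.7, 90.4 and 94.6 CPM in SREBP2 with no overlap (log2 fold change -0.39 ± 0.05, edgeR adjusted p = 9.66e-07). Insig2, which retains the SCAP complex, rose from 16.2 ± 0.562 to 40.2 ± 4.65 CPM (log2 fold change 1.31 ± 0.08, edgeR adjusted p = 2.03e-10). Insig1, usually a strong SREBP target, is listed at 0 in every Vector library and at no more than 0.108 CPM in SREBP2, under the floor, and was not tested. The proteases that cut SREBP differed in their results: Mbtps1 rose from 87.1 ± 2.83 to 108 ± 1.35 CPM (log2 fold change 0.31 ± 0.04, edgeR adjusted p = 5.74e-06), and Mbtps2 stood at 31.6 ± 1.47 and 32.1 ± 1.77 CPM (log2 fold change 0.02 ± 0.06, edgeR adjusted p = 0.804). Tmem97 (sigma-2 receptor) was lower by a small amount (log2 fold change -0.22 ± 0.09, edgeR adjusted p = 0.03005), with overlapping libraries, and did not pass the test without SREBP2 1 or without Vector 1.

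Genes of sterol export, esterification and transport gave 8 higher, 6 lower and 2 not past the test of 16 (median 0.09). Abca1, the exporter that loads HDL, fell from 10.2 ± 0.555 to 5.88 ± 0.372 CPM (log2 fold change -0.79 ± 0.13, edgeR adjusted p = 2.98e-05). Apoe fell from 27.8 ± 1.18 to 16.5 ± 3.71 CPM and Abcg4, another sterol exporter, from 41.6 ± 3.51 to 24.2 ± 2.83 CPM. Smaller falls were those of Abca7, Osbpl1a and Osbpl9. Soat2, a cholesterol esterifying enzyme, rose from 8.78 ± 0.997 to 22.3 ± 1.86 CPM (log2 fold change 1.34 ± 0.09, edgeR adjusted p = 8.14e-10), and Soat1, its relative, stood at 1.65 ± 0.123 and 1.52 ± 0.197 CPM without passing the test (log2 fold change -0.12 ± 0.20, edgeR adjusted p = 0.6301). The largest rise of the list with a level over 10 CPM was that of Lpcat3, which puts polyunsaturated fatty acids into phospholipids, at 104, 103 and 104 CPM in Vector and 435, 442 and 455 CPM in SREBP2 (log2 fold change 2.10 ± 0.04, edgeR adjusted p = 5.40e-16). The oxysterol-binding genes Osbpl8 and Osbpl11 rose from 41.7 ± 0.277 to 121 ± 10.9 CPM and from 22.8 ± 0.823 to 52.9 ± 6.32 CPM.

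Most genes of fatty acid synthesis rose. Of 31 genes tested, 22 were higher, 4 lower and 5 did not pass, with 14 higher over 2-fold and a median log2 fold change of 0.73. Acly, which makes cytosolic acetyl-CoA from citrate, stood at 377, 373 and 379 CPM in Vector and 1197, 1369 and 1347 CPM in SREBP2 (log2 fold change 1.79 ± 0.06, edgeR adjusted p = 2.00e-13). Fasn, the fatty acid synthase, stood at 853, 817 and 846 CPM and 2214, 2446 and 2320.1 CPM (log2 fold change 1.47 ± 0.05, edgeR adjusted p = 4.03e-13). In both, SREBP2 1 gave the lowest of the SREBP2 values, still above every Vector value. Acaca, the acetyl-CoA carboxylase that commits carbon to the pathway, rose from 131 ± 5.88 to 329 ± 23.98 CPM (log2 fold change 1.33 ± 0.05, edgeR adjusted p = 9.19e-13), and Acss2, which makes acetyl-CoA from acetate, rose from 203 ± 3.21 to 586 ± 50.1 CPM (log2 fold change 1.53 ± 0.06, edgeR adjusted p = 2.19e-12). Acacb, the mitochondrial carboxylase, was not past the threshold (log2 fold change -0.51 ± 0.23, edgeR adjusted p = 0.0583).

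The desaturases differed in their changes. Scd1, a stearoyl-CoA desaturase, was near the floor in Vector at 0.154, 0.153 and 0.256 CPM and stood at 30.98, 32.2 and 31.6 CPM in SREBP2 (log2 fold change 7.35 ± 0.15, edgeR adjusted p = 1.23e-15). Its Vector values rest on a few counts a library, so the size of its fitted fold depends on the prior count. Scd2 was already high in Vector and rose from 902 ± 12.7 to 2154 ± 39.7 CPM (log2 fold change 1.26 ± 0.03, edgeR adjusted p = 2.33e-14). Scd4 rose by less (log2 fold change 0.38 ± 0.15, edgeR adjusted p = 0.0391) and Scd3 did not pass the test (log2 fold change 0.71 ± 0.33, edgeR adjusted p = 0.0669). Each changed sides of the threshold in at least 1 alternative. Scd1 to Scd4 are close copies, so reads may be split between them. Of the Fads genes, Fads3 rose from 54.5 ± 3.73 to 75.4 ± 6.49 CPM (log2 fold change 0.47 ± 0.07, edgeR adjusted p = 3.22e-05), while the polyunsaturated desaturase genes Fads1 and Fads2 were higher (log2 fold change 0.13 ± 0.04, edgeR adjusted p = 0.00653) and lower (log2 fold change -0.12 ± 0.04, edgeR adjusted p = 0.00847), each by a small amount with a call lost in at least 1 alternative. Among the elongation enzymes, Elovl6, which makes stearate, rose from 125 ± 3.14 to 309 ± 19.2 CPM, Elovl5 from 110.3 ± 2.0 to 255 ± 3.17 CPM, Hacd3 from 55.4 ± 2.42 to 161 ± 4.61 CPM, and Tecr, the last step of the cycle, from 219.6 ± 6.37 to 530.4 ± 31.5 CPM. Hacd4, a dehydratase of low level, fell to near the floor, from 2.23 ± 0.1604 to 0.179 ± 0.0325 CPM (log2 fold change -3.59 ± 0.36, edgeR adjusted p = 1.93e-07). The mitochondrial fatty acid genes Oxsm and Mcat fell from 12.6 ± 0.481 to 8.03 ± 0.498 CPM and from 27.7 ± 1.91 to 20.9 ± 0.665 CPM.

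Me1, the malic enzyme, which is in the fatty acid list, rose from 65.5 ± 1.601 to 148 ± 8.58 CPM (log2 fold change 1.18 ± 0.05, edgeR adjusted p = 1.92e-12). Idh1, the cytosolic isocitrate dehydrogenase, stood at 50, 47.1 and 47.2 CPM in Vector and 299, 299 and 313 CPM in SREBP2 (log2 fold change 2.66 ± 0.04, edgeR adjusted p = 5.10e-17). Slc25a1, which exports citrate from mitochondria, rose from 112 ± 1.23 to 245 ± 21.8 CPM (log2 fold change 1.13 ± 0.06, edgeR adjusted p = 4.29e-11). Idh1 and Slc25a1 belong to a list of 23 citrate cycle and related genes in which 8 were higher and 11 lower (median -0.08, or -0.13 without Vector 1).

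Of 26 genes of phospholipid and triglyceride synthesis, 15 were higher and 8 lower (median 0.45). Lpin1, the phosphatidate phosphatase that makes diacylglycerol, stood at 38.9, 38.5 and 40.3 CPM in Vector and 383, 393 and 383 CPM in SREBP2 (log2 fold change 3.30 ± 0.05, edgeR adjusted p = 3.17e-17). Chpt1, which makes phosphatidylcholine, rose from 14.9 ± 1.33 to 104 ± 5.28 CPM (log2 fold change 2.80 ± 0.08, edgeR adjusted p = 2.94e-14), and Ptdss2, a phosphatidylserine synthase, rose from 24.8 ± 1.05 to 152 ± 14.1 CPM (log2 fold change 2.62 ± 0.07, edgeR adjusted p = 1.38e-14). In Vector+EST, Lpin1 stood at 159 ± 6.34, Chpt1 at 81.5 ± 2.93 and Ptdss2 at 142 ± 5.63 CPM. Pisd, which turns phosphatidylserine into phosphatidylethanolamine, fell from 149.8 ± 6.42 to 94.3 ± 1.53 CPM, and Agpat5, an acyltransferase of early glycerolipid synthesis, fell from 63.6 ± 1.21 to 48.4 ± 4.83 CPM. Branches that leave the mevalonate pathway for prenylation, dolichol and coenzyme Q did not share its rise, with 6 of 25 genes higher, 9 lower and 10 not past the test (median -0.10, or -0.14 without Vector 1), none of them over 2-fold. Ggps1, which makes geranylgeranyl diphosphate, rose from 39.4 ± 2.81 to 61.03 ± 1.29 CPM, and Pdss1, which builds the tail of coenzyme Q, fell from 28.1 ± 0.213 to 17.5 ± 1.26 CPM. Fatty acid oxidation gave 10 higher and 6 lower of 22 (median 0.05).

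**Figure D2:**
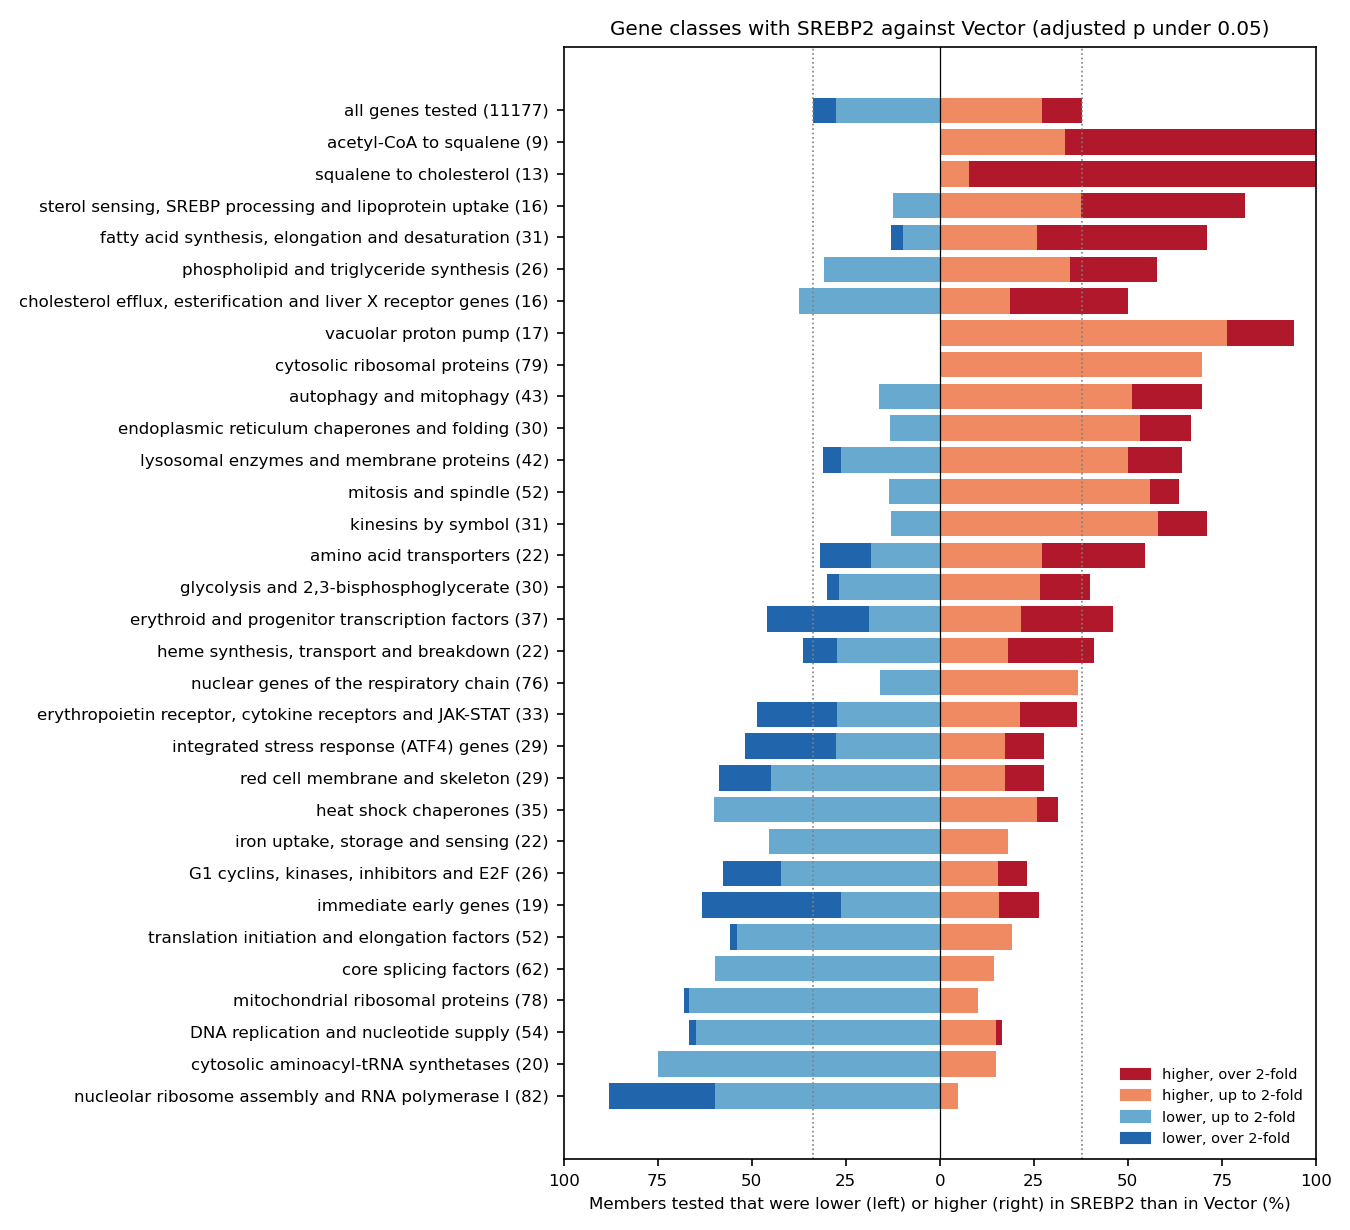
Share of the tested members of each gene list that were lower (left) or higher (right) in SREBP2 than in Vector at an edgeR adjusted p under 0.05, in percent, with the darker part of each bar over 2-fold. Dotted lines mark the shares over all genes tested, 33.8% lower and 37.7% higher; both cholesterol synthesis lists reach the full width on the right and ribosome biogenesis the largest share on the left.

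Of the changed genes that averaged at least 3 log2 CPM and whose groups did not overlap, the largest rise was that of Ppef1, a protein phosphatase best known from sensory neurons. It was under the floor in Vector at 0, 0 and 0.102 CPM and stood at 14.2, 16.3 and 17.5 CPM in SREBP2, at least 104-fold higher against a floor of 3 counts a library (edgeR adjusted p = 8.93e-13). Scd1 came next under these limits. Further large rises were those of Fam50b (0.205 ± 0.0892 to 20.6 ± 1.801 CPM), Prune2 (0.2896 ± 0.05799 to 20.8 ± 1.96 CPM), Lmtk3 (0.562 ± 0.0506 to 23.5 ± 1.79 CPM) and Tlcd3b (0.512 ± 0.137 to 21.1 ± 3.55 CPM), all at a small fraction of a CPM to under 1 CPM in Vector. The tubulin gene Tubb2b started from a measurable level and rose from 3.73 ± 0.497 to 109.7 ± 6.24 CPM (log2 fold change 4.88 ± 0.08, edgeR adjusted p = 1.97e-16). Ppfia3, a scaffold of the synaptic active zone, rose from 3.73 ± 0.733 to 69.3 ± 6.92 CPM (log2 fold change 4.21 ± 0.11, edgeR adjusted p = 1.62e-14), and Adora3, an adenosine receptor, rose from 0.733 ± 0.1497 to 20.6 ± 5.13 CPM (log2 fold change 4.80 ± 0.30, edgeR adjusted p = 4.86e-10). Tmem184a stood at 10.3, 23.4 and 27.7 CPM in SREBP2, with SREBP2 1 at less than any other SREBP2 library, and at 1.23, 0.968 and 1.07 CPM in Vector.

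Among the same 15 largest rises, Actn3, Btn1a1, Gja6 and Rogdi were also high in Vector+EST. Actn3, a muscle actinin, stood at 0.767 ± 0.178 CPM in Vector, 24.5 ± 1.42 CPM in SREBP2 and 23.4 ± 1.25 CPM in Vector+EST. Rogdi stood at 11.7 ± 0.877, 203 ± 11.9 and 195 ± 10.3 CPM, and Btn1a1, a butyrophilin of milk fat, at 3.07 ± 0.276, 73.6 ± 1.52 and 62.3 ± 1.65 CPM. For Ppef1, Scd1, Fam50b, Prune2 and Lmtk3, by contrast, the Vector+EST means were 0.0694 ± 0.0799, 0.139 ± 0.0788, 0.0528 ± 0.05304, 0.175 ± 0.0822 and 0.538 ± 0.243 CPM.

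Under the same limits the falls were led by Slc4a1, the band 3 anion exchanger of the red cell membrane, at 66.9, 66.1 and 69.6 CPM in Vector and 3.39, 5.14 and 3.58 CPM in SREBP2 (log2 fold change -4.06 ± 0.10, edgeR adjusted p = 8.19e-15). Ikzf4, an Ikaros family factor, stood at 28.2, 28.2 and 28.5 CPM and 2.07, 2.06 and 1.84 CPM (log2 fold change -3.83 ± 0.12, edgeR adjusted p = 1.42e-13). Gda, guanine deaminase, fell from 33.7 ± 1.35 to 2.44 ± 0.246 CPM (log2 fold change -3.79 ± 0.13, edgeR adjusted p = 2.29e-13), and Lyl1, a helix-loop-helix factor of blood stem cells related to Tal1, fell from 338 ± 9.64 to 25.5 ± 7.91 CPM (log2 fold change -3.73 ± 0.14, edgeR adjusted p = 1.23e-12). The transglutaminases Tgm1 and Tgm2 both fell, from 27.3 ± 2.14 to 2.35 ± 0.305 CPM and from 142 ± 4.07 to 16.5 ± 1.78 CPM. Further falls were those of Map1a (44.9 ± 2.68 to 4.04 ± 1.02 CPM), a microtubule-binding protein, Il4ra (60.3 ± 2.36 to 5.46 ± 1.17 CPM), the interleukin 4 receptor chain, Stk10 (69.8 ± 1.56 to 6.36 ± 0.359 CPM), a kinase, Serpinb9c (27.3 ± 1.05 to 2.85 ± 0.277 CPM), a protease inhibitor, and Treml2 (126 ± 1.76 to 13.7 ± 2.17 CPM). Rgs18, a regulator of G protein signalling in blood cells, Inf2, a formin, Wnk4, a kinase, and Actr3b, an actin-related protein, completed the 15. All 15 were low in Vector+EST too.

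**Figure D3:**
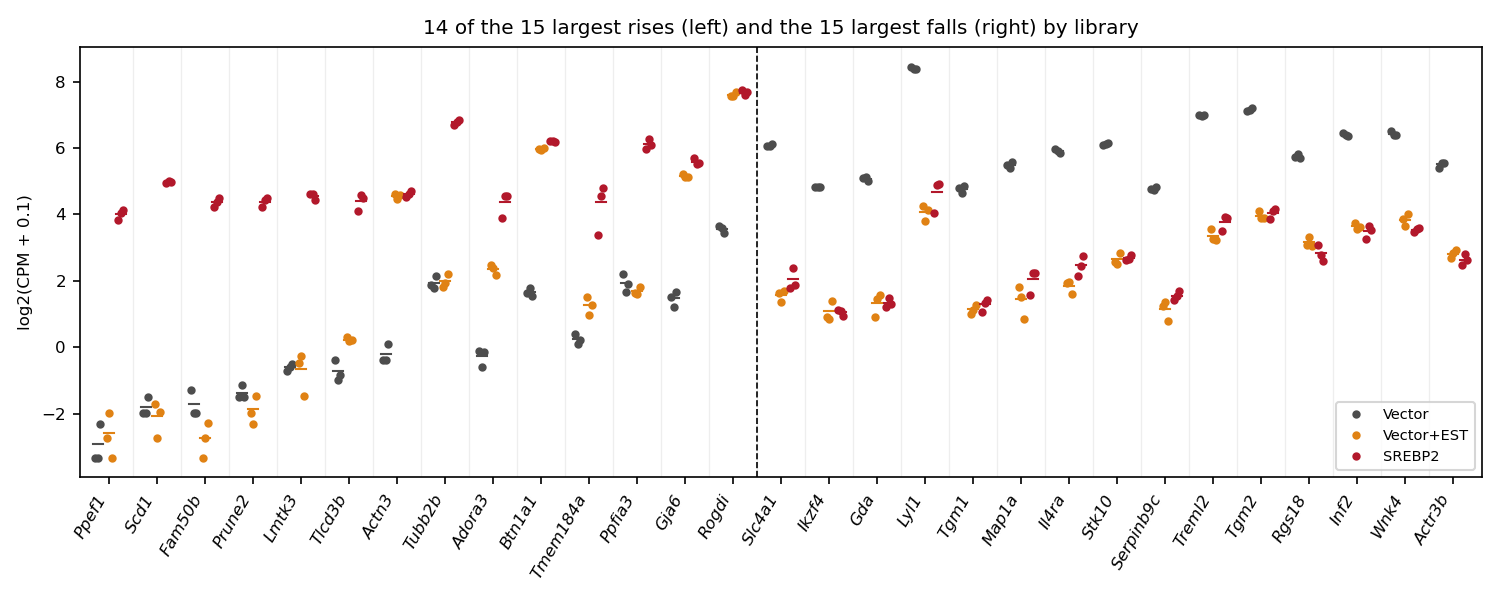
log2(CPM + 0.1) by library for 14 of the 15 largest rises and the 15 largest falls of SREBP2 against Vector under the limits given above, 1 point a library, with bars at group means of the plotted values and Vector+EST beside them. Vector+EST sits near SREBP2 for every fall and for the rises Actn3, Btn1a1, Gja6 and Rogdi, and near Vector for rises such as Scd1 (mean 0.139 ± 0.0788 CPM in Vector+EST) and Ppfia3.

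Factors that set the erythroid program moved in both directions. Of 37 tested, 17 were higher (9 over 2-fold) and 17 lower (10 over 2-fold), with a median log2 fold change of -0.08, which was 0.02 without SREBP2 1 and -0.12 without Vector 1. Gata2, the GATA factor of early progenitors, stood at 656, 624 and 653 CPM in Vector and 128, 133 and 132 CPM in SREBP2 (log2 fold change -2.30 ± 0.05, edgeR adjusted p = 7.91e-16). Tal1, its partner in the same complexes, stood at 476, 477 and 485 CPM and 83.3, 112 and 113 CPM (log2 fold change -2.22 ± 0.09, edgeR adjusted p = 3.93e-12). Gata1, counted here from whatever of its sequence the disrupted gene and the fusion transcribe, stood at 1785, 1751 and 1769.9 CPM and 511, 585 and 575 CPM (log2 fold change -1.67 ± 0.07, edgeR adjusted p = 2.17e-12), and the counts do not tell the 2 sources apart. In all 3 genes the SREBP2 libraries lay well below every Vector library.

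Cofactors of the same complexes split. Cbfa2t3 (ETO2) fell from 348 ± 8.06 to 107 ± 21.97 CPM (log2 fold change -1.71 ± 0.12, edgeR adjusted p = 2.50e-09) and Ldb1 from 386 ± 13.5 to 247 ± 24.6 CPM (log2 fold change -0.64 ± 0.06, edgeR adjusted p = 1.17e-07), while Lmo2, the bridging protein, rose from 260.3 ± 5.18 to 373 ± 63.4 CPM (log2 fold change 0.52 ± 0.09, edgeR adjusted p = 0.0001297) and Zfpm1 (FOG1), the GATA1 cofactor, rose from 577 ± 15.7 to 1151 ± 28.99 CPM (log2 fold change 1.00 ± 0.04, edgeR adjusted p = 8.28e-13). The repressors Bcl11a and Sox6, known for silencing embryonic globin, fell from 267 ± 3.82 to 129.9 ± 18.5 CPM and from 32.4 ± 0.506 to 13.1 ± 0.294 CPM. E2f2, an E2F of late erythroid division, fell from 99.9 ± 3.39 to 30.9 ± 1.71 CPM (log2 fold change -1.69 ± 0.06, edgeR adjusted p = 1.13e-12), and Myb, a progenitor factor, fell from 336 ± 7.65 to 263 ± 34.02 CPM (log2 fold change -0.35 ± 0.09, edgeR adjusted p = 0.00244). Klf1, the erythroid Krüppel-like factor, rose from 267 ± 10.5 to 333 ± 40.9 CPM (log2 fold change 0.32 ± 0.08, edgeR adjusted p = 0.001398).

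The same list holds CNC and small Maf factors, which bind Maf recognition elements and govern globin and heme genes. Bach1, a heme-sensing repressor, stood at 29.8, 31.3 and 28.96 CPM in Vector and 235, 209.8 and 207 CPM in SREBP2 (log2 fold change 2.86 ± 0.05, edgeR adjusted p = 4.65e-16). Nfe2l1, which lies in the membrane of the endoplasmic reticulum and raises proteasome genes, stood at 68.9, 69.2 and 70.1 CPM and 263, 271 and 254 CPM (log2 fold change 1.92 ± 0.04, edgeR adjusted p = 2.12e-15). SREBP2 and Vector libraries were widely separated in both. Mafk rose from 50.2 ± 1.31 to 149 ± 11.6 CPM, Maff, of low level, from 0.716 ± 0.155 to 3.65 ± 0.279 CPM, Mafg from 115 ± 0.511 to 131 ± 4.04 CPM and Nfe2l2 (NRF2) from 123 ± 1.91 to 187 ± 16.1 CPM. Nfe2, the partner of small Maf proteins at globin genes, stood at 263, 265 and 262 CPM in Vector and 200.4, 268 and 273 CPM in SREBP2 (log2 fold change -0.09 ± 0.10, edgeR adjusted p = 0.434), with SREBP2 1 below and the other SREBP2 libraries just above the Vector values. Bach2, a relative of Bach1, did not pass the test (log2 fold change 0.31 ± 0.27, edgeR adjusted p = 0.313). Gfi1b, a transcriptional repressor that acts within the erythroid and platelet lineages, rose from 292 ± 7.902 to 747 ± 47.98 CPM (log2 fold change 1.36 ± 0.05, edgeR adjusted p = 7.91e-13), Hhex from 84.2 ± 2.66 to 195 ± 12.4 CPM, Foxo3, which acts in late maturation, from 132 ± 3.53 to 257 ± 13.2 CPM, and Fli1, a megakaryocyte factor, from 14.1 ± 0.3203 to 28.9 ± 2.14 CPM.

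Globin genes did not rise together. Of 8 tested, 1 was higher, 3 were lower and 4 did not pass the test (median -0.32). Without SREBP2 1, 2 were higher, and the median was -0.60 without Vector 4 and -0.15 without Vector 5. The alpha globin gene Hba-a1 stood at 3222, 3017 and 3029.8 CPM in Vector and 1525, 1666 and 1712 CPM in SREBP2 (log2 fold change -0.92 ± 0.04, edgeR adjusted p = 1.94e-11), and Hba-a2 fell from 277 ± 8.53 to 153 ± 5.699 CPM (log2 fold change -0.86 ± 0.05, edgeR adjusted p = 1.17e-10). Hbb-b1, the major beta gene, stood at 3249.9, 3083 and 3076 CPM and 2708, 3007 and 3314 CPM with overlapping libraries (log2 fold change -0.06 ± 0.06, edgeR adjusted p = 0.389), and Hbb-b2 rose from 77.7 ± 1.72 to 112 ± 23.3 CPM (log2 fold change 0.52 ± 0.12, edgeR adjusted p = 0.000707). Alpha genes and beta genes are near-identical copies within each cluster, so reads may have been split between them and single globin values are uncertain.

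Heme genes moved in both directions along the pathway. Of 22 genes of heme synthesis, transport and breakdown, 9 were higher and 8 lower (median -0.00). Alas2, the erythroid rate-limiting synthase, stood at 52.3, 52.01 and 51.9 CPM in Vector and 163, 181 and 185 CPM in SREBP2 (log2 fold change 1.76 ± 0.06, edgeR adjusted p = 3.37e-13). The next enzyme, Alad, fell from 606 ± 10.9 to 281 ± 47.2 CPM (log2 fold change -1.11 ± 0.09, edgeR adjusted p = 1.25e-08). Further along, Uros rose from 35.3 ± 0.823 to 45.01 ± 5.82 CPM and Urod fell from 151 ± 1.34 to 134 ± 8.72 CPM. Cpox was not past the threshold (log2 fold change -0.10 ± 0.04, edgeR adjusted p = 0.0606), Ppox, the penultimate enzyme, rose from 43.04 ± 3.06 to 147 ± 8.93 CPM (log2 fold change 1.77 ± 0.07, edgeR adjusted p = 1.09e-12), and Fech, which inserts the iron, was marginally lower (log2 fold change -0.10 ± 0.04, edgeR adjusted p = 0.0226) and lost the call in at least 1 alternative. Abcb10, a mitochondrial transporter that stabilises iron import for heme, stood at 143, 142 and 143 CPM in Vector and 675, 736 and 731 CPM in SREBP2 (log2 fold change 2.32 ± 0.05, edgeR adjusted p = 2.12e-15), and Tmem14c, a porphyrin transporter, rose from 215 ± 6.91 to 514 ± 39.8 CPM (log2 fold change 1.26 ± 0.05, edgeR adjusted p = 1.23e-12). Slc48a1, which moves heme out of lysosomes, fell from 504 ± 11.7 to 272 ± 39.98 CPM, and the heme exporter gene Flvcr1 rose from 43.3 ± 1.98 to 86.4 ± 1.13 CPM.

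Iron handling gave 4 higher and 10 lower of 22 (median -0.16, or -0.10 without SREBP2 1 and -0.08 without Vector 5). Tfrc, the transferrin receptor, rose from 526 ± 23.5 to 806 ± 13.8 CPM (log2 fold change 0.61 ± 0.04, edgeR adjusted p = 3.54e-10), Ncoa4, which delivers ferritin for degradation, rose from 271 ± 2.18 to 437 ± 8.97 CPM, and Tfr2, the second transferrin receptor, fell from 198 ± 1.43 to 106 ± 8.05 CPM (log2 fold change -0.91 ± 0.05, edgeR adjusted p = 1.01e-10). Steap3, which reduces iron in endosomes, fell from 298 ± 10.9 to 197 ± 39.8 CPM, and Slc11a2, the iron transporter beside it, from 135 ± 5.87 to 107 ± 4.88 CPM.

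Membrane and skeleton proteins of the red cell gave 8 higher and 17 lower of 29 (median -0.16). Besides Slc4a1, Epb42, which ties band 3 to the skeleton, fell from 31.2 ± 1.11 to 4.58 ± 0.666 CPM (log2 fold change -2.77 ± 0.11, edgeR adjusted p = 1.95e-12) and Tmod1, which caps actin filaments, fell from 30.97 ± 1.45 to 8.23 ± 0.806 CPM (log2 fold change -1.91 ± 0.11, edgeR adjusted p = 1.54e-10). Sptb, erythroid beta spectrin, rose from 281 ± 7.35 to 817 ± 47.3 CPM (log2 fold change 1.54 ± 0.05, edgeR adjusted p = 6.63e-14), Dmtn, dematin, from 27.3 ± 1.21 to 60.8 ± 13.1 CPM, and Icam4, a blood group adhesion molecule, from 17.03 ± 2.37 to 63.7 ± 0.996 CPM.

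Myeloid genes, 14 tested, were 7 higher and 6 lower. Csf2rb, the beta chain shared by receptors of IL-3, IL-5 and GM-CSF, stood at 68.1, 65.3 and 65.5 CPM in Vector and 787, 1137 and 1104 CPM in SREBP2 (log2 fold change 3.93 ± 0.15, edgeR adjusted p = 1.12e-12), with SREBP2 1 the lowest of its group. Its near-identical neighbour Csf2rb2 rose from 16.8 ± 0.932 to 257 ± 65.6 CPM, and reads may be shared between them. Kit, the stem cell factor receptor, fell from 326 ± 8.71 to 241 ± 9.51 CPM (log2 fold change -0.44 ± 0.05, edgeR adjusted p = 2.48e-07), and Cebpb, a myeloid C/EBP factor, from 26.3 ± 2.44 to 10.7 ± 1.45 CPM. Megakaryocyte genes were 4 higher and 6 lower of 13 (median -0.63, or -0.29 without SREBP2 1). Pf4, a platelet chemokine, rose from 9.46 ± 0.575 to 47.7 ± 7.74 CPM (log2 fold change 2.33 ± 0.12, edgeR adjusted p = 4.10e-11), while Itga2b, the integrin chain of the platelet fibrinogen receptor, fell from 28.1 ± 1.65 to 7.23 ± 0.644 CPM (log2 fold change -1.96 ± 0.13, edgeR adjusted p = 6.98e-10) and Plek, pleckstrin, from 98.3 ± 3.299 to 27.9 ± 6.66 CPM.

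Cytokine signalling, 33 genes, had 12 higher and 16 lower (median -0.11, or -0.18 without SREBP2 1). Stat2, which carries interferon signals, stood at 31.8, 33.01 and 32.03 CPM in Vector and 159, 158 and 157 CPM in SREBP2 (log2 fold change 2.29 ± 0.04, edgeR adjusted p = 2.44e-16). Il6st (gp130) rose from 2.98 ± 0.579 to 9.95 ± 0.266 CPM (log2 fold change 1.74 ± 0.12, edgeR adjusted p = 1.30e-09), Osm, the cytokine oncostatin M, fell from 30.3 ± 1.47 to 5.795 ± 0.683 CPM (log2 fold change -2.38 ± 0.09, edgeR adjusted p = 1.12e-12), and Ptpn6, the phosphatase SHP-1 that damps receptor signals, fell from 109.7 ± 1.09 to 27.1 ± 3.68 CPM (log2 fold change -2.02 ± 0.07, edgeR adjusted p = 5.67e-13). Epor, the erythropoietin receptor, fell from 113 ± 5.36 to 68.1 ± 13.3 CPM (log2 fold change -0.74 ± 0.11, edgeR adjusted p = 1.60e-05). Interferon genes split evenly, 10 higher and 10 lower of 25, with Ifi27 higher (27.2 ± 1.82 to 56.8 ± 2.11 CPM) and Ifih1, a sensor of viral RNA, lower (15.8 ± 0.325 to 9.34 ± 0.272 CPM).

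Immediate early and growth response genes leaned down, with 12 of 19 lower (7 over 2-fold) and 5 higher (median -0.83). Myc stood at 415, 391 and 395 CPM in Vector and 107, 166 and 164 CPM in SREBP2 (log2 fold change -1.46 ± 0.14, edgeR adjusted p = 1.31e-07). Jund fell from 163 ± 9.83 to 68.5 ± 2.01 CPM (log2 fold change -1.25 ± 0.08, edgeR adjusted p = 3.62e-10) and Ier2 from 75.7 ± 6.29 to 14.7 ± 1.57 CPM (log2 fold change -2.37 ± 0.08, edgeR adjusted p = 2.30e-13). Btg2, an antiproliferative gene induced by p53, went the other way, from 29.8, 31.9 and 27.6 CPM to 349, 321 and 338 CPM (log2 fold change 3.50 ± 0.06, edgeR adjusted p = 1.97e-16). In the network of MYC and MAX partners, 4 of 10 were higher and 4 lower. Mxd1, which competes with MYC for MAX and represses, stood at 17.2, 16.1 and 16.1 CPM and 89.3, 85.02 and 84.3 CPM (log2 fold change 2.39 ± 0.05, edgeR adjusted p = 1.34e-15), and Mxd4, of the same family, rose from 6.72 ± 0.0784 to 10.4 ± 2.36 CPM. Mnt, a further repressor, fell from 70.1 ± 3.55 to 44.3 ± 2.69 CPM.

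Ribosome biogenesis had the largest share of lower genes among the lists in the plot of gene classes. Of 82 genes that transcribe, process and assemble ribosomal RNA, 72 were lower (23 over 2-fold), 4 were higher and 6 did not pass, with a median log2 fold change of -0.85. Ubtf, a factor of RNA polymerase I, stood at 328, 331 and 343 CPM in Vector and 95.3, 116 and 112 CPM in SREBP2 (log2 fold change -1.63 ± 0.07, edgeR adjusted p = 3.74e-12), and Polr1b, a subunit of that polymerase, at 132, 134 and 131 CPM and 34.4, 50.96 and 47.2 CPM (log2 fold change -1.58 ± 0.12, edgeR adjusted p = 9.01e-09). Genes of this list were named only if the groups did not overlap, so their separation is not a result. Rrp1b, a nucleolar processing factor, fell from 147 ± 5.66 to 44.97 ± 6.67 CPM (log2 fold change -1.71 ± 0.09, edgeR adjusted p = 5.92e-11), and Ncl, nucleolin, fell from 2682 ± 82.01 to 1410.0 ± 118 CPM (log2 fold change -0.93 ± 0.07, edgeR adjusted p = 2.78e-09). Among the 4 higher members were Rrn3, the initiation factor of the same polymerase (149 ± 0.172 to 288 ± 4.22 CPM), Nop10, a component of the box H/ACA particle (165 ± 5.31 to 232 ± 14.6 CPM), and Taf1c (36.03 ± 1.06 to 45.2 ± 2.09 CPM).

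The proteins of the ribosome itself did not follow. Of 79 cytosolic ribosomal protein genes, 55 were higher and 0 lower, none over 2-fold, and their median was only 0.12. The count of higher genes depended on the scaling and the libraries, at 29 with library totals only and 35 without Vector 1, and 1 gene was lower without SREBP2 3. Many of these genes have processed copies that share reads. Mitochondrial ribosomal proteins leaned down (53 of 78 lower, median -0.23), among them Mrpl12 (205 ± 2.23 to 96.2 ± 13.2 CPM). Aminoacyl-tRNA synthetases were lower in 15 of 20 (median -0.33), Rars falling from 222 ± 0.962 to 149 ± 9.495 CPM and Gars from 307 ± 3.32 to 203 ± 6.13 CPM, and translation factors in 29 of 52 (median -0.18). Eef2k, the kinase that slows elongation, fell from 138 ± 1.36 to 49.2 ± 6.37 CPM, and Eif5, an initiation factor, rose from 389 ± 15.4 to 527 ± 23.2 CPM. Splicing factors were lower in 37 of 62 and higher in 9, none over 2-fold (median -0.17).

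**Figure D4:**
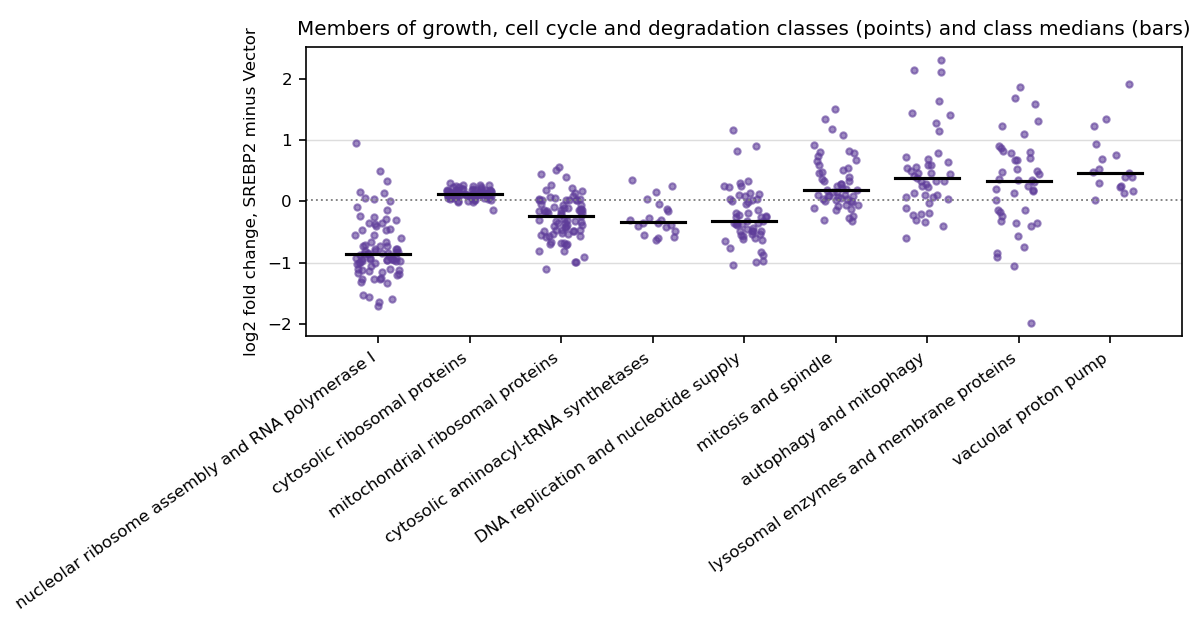
log2 fold change of SREBP2 against Vector for each tested member of 9 growth, cell cycle and degradation lists (points) with the median of each list (bars) and the median of all genes tested, 0.03 (dotted line). Nucleolar ribosome assembly lies mostly below the line with a median of -0.85, and the V-ATPase list above it with a median of 0.47.

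Genes of the G1 phase and of DNA replication were mostly lower and those of mitosis mostly higher. In G1, 15 of 26 were lower and 6 higher (median -0.26). Cdkn1b (p27), an inhibitor of cyclin-dependent kinases, stood at 30.3, 27.2 and 24.3 CPM in Vector and 132, 108 and 113 CPM in SREBP2 (log2 fold change 2.11 ± 0.09, edgeR adjusted p = 4.31e-12). Ccnd2, cyclin D2, fell from 555 ± 12.7 to 192 ± 31.3 CPM (log2 fold change -1.53 ± 0.10, edgeR adjusted p = 1.04e-09), E2f7, an E2F that represses, from 54.5 ± 4.13 to 24.4 ± 1.41 CPM, and Ccne1, cyclin E1, rose from 116 ± 0.556 to 222 ± 16.97 CPM (log2 fold change 0.93 ± 0.05, edgeR adjusted p = 1.79e-10). In replication, 36 of 54 were lower, 9 higher and only 1 lower over 2-fold (median -0.32). Cdt1, which licenses origins, fell from 173 ± 5.33 to 87.4 ± 11.7 CPM (log2 fold change -0.98 ± 0.08, edgeR adjusted p = 9.85e-09), Uhrf1, which maintains DNA methylation, from 305 ± 4.66 to 156 ± 21.5 CPM, and Ung, the uracil glycosylase, from 53.3 ± 0.354 to 26.04 ± 4.05 CPM. Orc2, of the origin recognition complex, rose from 157 ± 4.81 to 351 ± 11.5 CPM and Cdc6, a loader of the replicative helicase, from 149 ± 5.19 to 279 ± 11.4 CPM.

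In mitosis, 33 of 52 genes were higher, 7 lower and 12 not past the test (median 0.19). Without SREBP2 1, 26 were higher and 7 lower (median 0.11). Cdc25b, the phosphatase that starts mitosis, rose from 34.6 ± 2.73 to 98.2 ± 4.84 CPM (log2 fold change 1.51 ± 0.08, edgeR adjusted p = 6.93e-11), Ccna2, cyclin A2, from 392 ± 4.62 to 894 ± 11.4 CPM, and Nusap1, a spindle protein, from 77.05 ± 3.38 to 195 ± 22.5 CPM. Kif20b fell from 106 ± 2.62 to 85.6 ± 1.22 CPM. Kinesins as a family were 22 higher and 4 lower of 31 (median 0.28), and 16 higher and 4 lower without SREBP2 1. Histone genes mostly did not pass the test, 35 of 50, with 10 higher and 5 lower, or 10 and 2 without SREBP2 1.

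BCL2 family genes were 5 higher and 8 lower of 16. Bid and Bbc3 (PUMA), which promote cell death, fell from 87.2 ± 1.85 to 25.2 ± 4.83 CPM (log2 fold change -1.79 ± 0.10, edgeR adjusted p = 1.67e-10) and from 40.7 ± 1.57 to 15.2 ± 0.873 CPM (log2 fold change -1.42 ± 0.06, edgeR adjusted p = 8.76e-12). Bcl2l11 (BIM), which does so too, rose from 14.2 ± 0.455 to 24.7 ± 0.841 CPM (log2 fold change 0.80 ± 0.06, edgeR adjusted p = 3.82e-09), Bcl2, a survival gene, rose from 11.7 ± 1.08 to 20.2 ± 1.15 CPM, and Bcl2l1, the survival gene of maturing erythroblasts, fell from 64.9 ± 3.61 to 42.5 ± 5.21 CPM (log2 fold change -0.61 ± 0.08, edgeR adjusted p = 3.14e-06). Targets of p53 were 8 higher and 6 lower of 22. Trp53inp1 rose from 20.1 ± 1.28 to 41.4 ± 0.874 CPM (log2 fold change 1.04 ± 0.06, edgeR adjusted p = 3.62e-10), and Cdkn1a (p21), a kinase inhibitor, fell from 235 ± 5.89 to 159 ± 21.4 CPM (log2 fold change -0.56 ± 0.08, edgeR adjusted p = 8.72e-06).

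Genes of folding in the endoplasmic reticulum and of its unfolded protein response leaned up, with 20 of 30 genes higher, 4 lower and a median of 0.27. Without SREBP2 1, 17 were higher and 7 lower. Ern1 (IRE1), a sensor of that response, rose from 20.9 ± 0.361 to 60.8 ± 12.96 CPM (log2 fold change 1.54 ± 0.11, edgeR adjusted p = 2.82e-09), Ero1a, which oxidises disulphides, from 223 ± 1.72 to 561 ± 16.1 CPM, and Dnajb9, a chaperone of the lumen, from 13.1 ± 0.939 to 32.5 ± 6.701 CPM. Calr, calreticulin, fell from 817 ± 2.89 to 499.6 ± 3.899 CPM (log2 fold change -0.71 ± 0.04, edgeR adjusted p = 6.26e-11). ATF4 targets of the integrated stress response leaned down, 15 of 29 lower and 8 higher (median -0.20). Slc7a5, the large neutral amino acid transporter, went against the list and rose from 184 ± 2.84 to 506 ± 17.4 CPM (log2 fold change 1.46 ± 0.05, edgeR adjusted p = 1.15e-13), and Vegfa, the vascular growth factor, rose from 23.3 ± 0.398 to 50.7 ± 7.58 CPM (log2 fold change 1.12 ± 0.09, edgeR adjusted p = 1.69e-08). Heat shock genes were lower in 21 of 35 and higher in 11. Hspa8, the constitutive HSP70, fell from 6168 ± 232 to 3739.8 ± 363 CPM (log2 fold change -0.72 ± 0.06, edgeR adjusted p = 1.54e-08), and Hspa4 from 514 ± 20.5 to 320.3 ± 21.1 CPM. The oxidative stress list divided into 10 higher and 11 lower of 29, Prdx6 rising from 449 ± 6.196 to 1294 ± 48.1 CPM and Cat, catalase, from 218 ± 2.25 to 438 ± 6.83 CPM, and Txnrd1, thioredoxin reductase, falling from 226 ± 5.84 to 131 ± 8.27 CPM. Proteasome genes were lower in 18 of 34 and higher in 7, by small amounts (median -0.12).

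Autophagy and lysosome genes leaned up. Of 43 autophagy genes 30 were higher (8 over 2-fold) and 7 lower (median 0.38). Tfe3, a factor that drives lysosome genes, stood at 68.7, 70.1 and 65.3 CPM in Vector and 332, 337 and 338 CPM in SREBP2 (log2 fold change 2.30 ± 0.04, edgeR adjusted p = 1.97e-16), while Tfeb, its close relative, fell from 20.8 ± 1.97 to 13.8 ± 1.98 CPM (log2 fold change -0.59 ± 0.10, edgeR adjusted p = 9.55e-05). Wipi1, which recruits the conjugation machinery, rose from 10.3 ± 0.831 to 45.3 ± 3.63 CPM, and Map1lc3a, an LC3 gene, from 5.54 ± 0.551 to 24.03 ± 1.01 CPM. Of 42 lysosome genes 27 were higher and 13 lower (median 0.34), Neu1, a sialidase, rising from 11.5 ± 0.208 to 42.2 ± 1.71 CPM (log2 fold change 1.87 ± 0.07, edgeR adjusted p = 1.28e-12), Arsa, arylsulfatase A, from 22.3 ± 0.872 to 71.8 ± 0.816 CPM, and Ctsl, cathepsin L, from 60.8 ± 1.87 to 183 ± 16.7 CPM. Ctsc, cathepsin C, fell from 23.9 ± 1.62 to 6.08 ± 0.689 CPM and Gusb, beta-glucuronidase, from 111 ± 4.07 to 53.4 ± 4.73 CPM. The V-ATPase, the proton pump that acidifies lysosomes, was higher in 16 of 17 subunit and assembly genes and lower in 0 (median 0.47). Its subunit Atp6v0a1 stood at 135, 132 and 136 CPM in Vector and 531, 497 and 488 CPM in SREBP2 (log2 fold change 1.91 ± 0.04, edgeR adjusted p = 3.61e-15). Without SREBP2 1 the higher counts were 29 for autophagy, 27 for the lysosome and 16 for the V-ATPase.

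Energy metabolism genes moved in both directions. Respiratory chain genes were 28 higher and 12 lower of 76 with a median of 0.02, and 25 were lower under library totals. Glycolysis was 12 higher and 9 lower of 30. Pfkfb4, which makes the activator of phosphofructokinase, rose from 10.3 ± 0.375 to 105 ± 4.59 CPM (log2 fold change 3.35 ± 0.08, edgeR adjusted p = 3.85e-15), Aldoc, an aldolase, from 6.32 ± 0.857 to 55.99 ± 2.17 CPM, and Pfkm, the muscle phosphofructokinase, from 71.2 ± 2.27 to 558 ± 15.4 CPM, while Pklr, the red cell pyruvate kinase, fell from 260.4 ± 12.7 to 122 ± 17.9 CPM (log2 fold change -1.09 ± 0.09, edgeR adjusted p = 1.26e-08) and Pfkp, the platelet phosphofructokinase, from 135 ± 1.697 to 75.2 ± 4.14 CPM. Gapdh stood at 3467 ± 121 and 3618 ± 148 CPM (log2 fold change 0.06 ± 0.04, edgeR adjusted p = 0.159).

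Solute carriers, 200 tested, were 78 higher (36 over 2-fold) and 63 lower (19 over 2-fold). Slc46a3, a lysosomal transporter, stood at 18.5, 17.8 and 15.4 CPM in Vector and 231, 204 and 202 CPM in SREBP2 (log2 fold change 3.62 ± 0.08, edgeR adjusted p = 3.61e-15). Slc12a4, the potassium-chloride cotransporter that sets red cell volume, rose from 24.2 ± 0.403 to 141 ± 6.05 CPM (log2 fold change 2.55 ± 0.05, edgeR adjusted p = 1.44e-15). Slc19a1, the folate carrier, fell from 57.8 ± 1.26 to 13.5 ± 3.73 CPM. Amino acid transporters were 12 higher and 7 lower of 22, with Slc7a8 rising from 153 ± 7.303 to 726 ± 43.7 CPM (log2 fold change 2.25 ± 0.05, edgeR adjusted p = 5.79e-15) and Slc38a5, a glutamine transporter, from 9.596 ± 0.856 to 50.7 ± 7.49 CPM, and with Slc6a9, the glycine transporter that feeds heme synthesis, falling from 24.97 ± 0.263 to 11.99 ± 2.19 CPM (log2 fold change -1.06 ± 0.12, edgeR adjusted p = 5.12e-07) and Slc7a1, the arginine transporter, from 203 ± 4.48 to 136 ± 8.57 CPM.

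Cytoskeletal genes were 14 higher and 15 lower of 37. Tuba1a, an alpha tubulin, stood at 241, 245 and 227 CPM in Vector and 984, 1188 and 1234 CPM in SREBP2 (log2 fold change 2.25 ± 0.08, edgeR adjusted p = 2.89e-13). Reads of Tuba1a may be shared with the close copy Tuba1b (2131 ± 78.5 to 1448 ± 158 CPM). Flna, filamin A, fell from 399.7 ± 7.75 to 103 ± 4.45 CPM (log2 fold change -1.96 ± 0.05, edgeR adjusted p = 1.39e-14), Lmnb1, lamin B1, from 262 ± 7.53 to 153 ± 12.3 CPM, and Actb from 1002 ± 45.98 to 600.4 ± 81.6 CPM (log2 fold change -0.74 ± 0.08, edgeR adjusted p = 5.02e-07). Adhesion genes were 10 higher and 6 lower of 19, with Icam2 higher (35.4 ± 1.15 to 85.3 ± 17.4 CPM) and Itgb7 lower (15.2 ± 0.868 to 8.94 ± 1.8 CPM).

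Chromatin and gene families were mixed as well. Polycomb and DNA methylation genes were 13 higher and 14 lower of 30, with the methyltransferase Dnmt3b falling from 91.6 ± 2.45 to 23.3 ± 1.89 CPM (log2 fold change -1.98 ± 0.07, edgeR adjusted p = 8.73e-13) and Cbx7 rising from 9.31 ± 1.19 to 17.9 ± 0.256 CPM. Zinc finger genes, the largest list at 325, were 112 higher and 85 lower, and 128 did not pass. Zfp28 rose from 4.07 ± 0.491 to 17.2 ± 0.927 CPM (log2 fold change 2.07 ± 0.12, edgeR adjusted p = 1.84e-10). Homeobox genes of the Hox clusters were 6 higher and 2 lower of 12 (1 lower without SREBP2 5), Hoxb13 rising from 25.2 ± 0.634 to 149 ± 4.83 CPM (log2 fold change 2.56 ± 0.05, edgeR adjusted p = 2.17e-16). Rab GTPases were 21 higher and 8 lower of 42, Usp deubiquitinases 20 and 14 of 44, and Trim ligases 10 and 10 of 34, with Trim7 rising from 4.45 ± 0.178 to 20.97 ± 2.56 CPM (log2 fold change 2.23 ± 0.12, edgeR adjusted p = 4.99e-11). By difference in CPM, which is not scaled to gene length, the largest gains beyond the lipid genes included Nomo1, which acts in membrane protein assembly (436 ± 2.7 to 1421 ± 72.4 CPM), and Eef1a1, elongation factor 1 alpha (9653 ± 83.8 to 10577 ± 167 CPM). The losses beyond Gata1, Hba-a1, Hspa8 and Ncl included Wiz, a zinc finger protein of the G9a complex (2823 ± 64.4 to 1455 ± 224 CPM), Car2, carbonic anhydrase (2719 ± 122 to 1533 ± 168 CPM), and Ftl1, ferritin light chain (4971 ± 69.3 to 4185 ± 175 CPM).

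Set against Vector+EST instead of Vector, the same SREBP2 libraries had 1615 genes higher (14.4%) and 1002 lower (8.96%). The lower count depends on the scaling and the libraries, and lower genes were 38.3% of those that passed here and 57.8% with library totals only. The comparisons share the SREBP2 libraries, so they are not independent and the values are only set side by side. All 22 cholesterol synthesis genes were higher than in Vector+EST, with medians of 1.97 and 1.92 for the early and late steps against 1.46 and 1.75 over Vector. Mean levels in Vector+EST were above those in Vector for Ebp and Lbr, at 104 ± 6.37 and 236 ± 4.41 CPM, and below them for Idi1 and Hmgcs1, at 92.2 ± 8.97 and 425 ± 7.02 CPM. The fatty acid list was higher in 21 of 31 genes and lower in 0. Fasn was at 431 ± 22.9 CPM in Vector+EST (log2 difference 2.43 ± 0.05, edgeR adjusted p = 4.35e-15), Elovl6 at 39.2 ± 0.914 CPM (log2 difference 2.98 ± 0.06, edgeR adjusted p = 1.78e-15) and Fads2, lower than in Vector, was higher than in Vector+EST (log2 difference 1.01 ± 0.04, edgeR adjusted p = 5.87e-12).

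Other lists looked different beside Vector+EST. Ribosome biogenesis, 72 of 82 lower than Vector, had 7 lower and 1 higher than Vector+EST (median -0.02). The lower count was 4 without SREBP2 3 and 3 without Vector+EST 3, and the higher count 5 without SREBP2 1 and 0 without SREBP2 5, Vector+EST 1 or Vector+EST 5. Mitosis genes, 33 higher than Vector, had 0 higher and 11 lower than Vector+EST. That lower count was 21 without SREBP2 1, 7 without SREBP2 3 or Vector+EST 5, and 6 without Vector+EST 1 or Vector+EST 3. Replication genes had 32 of 54 lower and 3 higher, and respiratory chain genes 21 lower and 1 higher of 76. The lower respiratory count was 13 without SREBP2 1, with 3 higher, 10 without SREBP2 3 and 13 without Vector+EST 5. Lysosome genes had 22 of 42 higher and 0 lower than Vector+EST, V-ATPase genes 9 and 0 of 17, membrane genes 13 and 1 of 29, and megakaryocyte genes 8 and 0 of 13. Of the megakaryocyte genes, 5 were higher without SREBP2 3, SREBP2 5, Vector+EST 1 or Vector+EST 3, and of the membrane genes 2 were lower without SREBP2 1. Nfe2l1 was at 71.02 ± 2.42 CPM in Vector+EST, near its Vector level and under its SREBP2 level (log2 difference 1.89 ± 0.04, edgeR adjusted p = 5.93e-15). Nfe2 was at 101 ± 6.699 CPM there, under both (log2 difference 1.29 ± 0.11, edgeR adjusted p = 1.12e-07). Abca1 was at 1.37 ± 0.389 CPM, also under both (log2 difference 2.09 ± 0.18, edgeR adjusted p = 1.42e-07). Gata2 was at 156 ± 4.55 CPM (log2 difference -0.25 ± 0.05, edgeR adjusted p = 0.000765), Tal1 at 99.7 ± 5.56 CPM (log2 difference 0.04 ± 0.10, edgeR adjusted p = 0.811) and Abcb10 at 676 ± 45.4 CPM (log2 difference 0.08 ± 0.05, edgeR adjusted p = 0.257), each close to SREBP2 and far from Vector.

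Promoter windows were searched for letters of known motifs on either strand. Of the 11177 tested genes, 9059 have a window in the RefSeq table. The NF-Y box CCAAT lay in the windows of 15 of the 17 cholesterol synthesis genes that have one (88.2%), in 44.5% of all tested genes and in 41.1% of the 27025 genes of the table. Mvk had 5 boxes, Hmgcs1 and Nsdhl had 4, and Acat2 and Erg28 had none, and Acat2 and Erg28 rose from 147 ± 5.02 to 426 ± 21.3 CPM and from 79.2 ± 2.02 to 288 ± 34.2 CPM. Fatty acid genes held the box in 15 of 27 (55.6%) and ribosome biogenesis genes in 28 of 74 (37.8%). Over all tested genes, it was in 48.1% of those higher than Vector, 51.8% of those higher over 2-fold, 40.01% of those lower and 45.2% of those not past the test. Genes higher than Vector+EST held it in 53.5% of 1313 and genes lower than Vector+EST in 44.5% of 818.

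The sterol response element core TCACNCCAC was rare. Of the 17 cholesterol genes 1 held it, Hmgcs1, and it was in 1.32% of tested genes and in 1.44% of all genes of the table. Genes higher than Vector held it in 1.80%, those higher over 2-fold in 2.07%, genes lower in 1.17%, those lower over 2-fold in 1.69% and those not past the test in 0.865%. It was in 2.44% of genes higher than Vector+EST and in 1.22% of those lower. In the fatty acid list Acsl1, an acyl-CoA synthetase, held it and rose from 162 ± 4.73 to 242 ± 29.1 CPM. The GC box GGGCGG, which Sp1 binds, was in the windows of 16 of the 17 cholesterol genes (94.1%), of 67.3% of tested genes and of 38.2% of all genes. The E-box CACGTG, which MYC and MAX bind, was in 15.98% of genes lower over 2-fold, in 11.2% of genes higher over 2-fold, in 11.8% of tested genes and in 8.09% of all genes. A gene counts here if any of its windows matches, and genes lower over 2-fold had 1.38 windows a gene against 1.27 for tested genes. Per window, the E-box was in 12.8% and 9.96%, and the sterol core in 1.22% and 1.09%. The sterol core shares over 2-fold rest on 20 higher and 9 lower genes. These shares are descriptions, windows of neighbouring genes can overlap, and the absence of a match says only that the letters are not in this window.

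**Figure D5:**
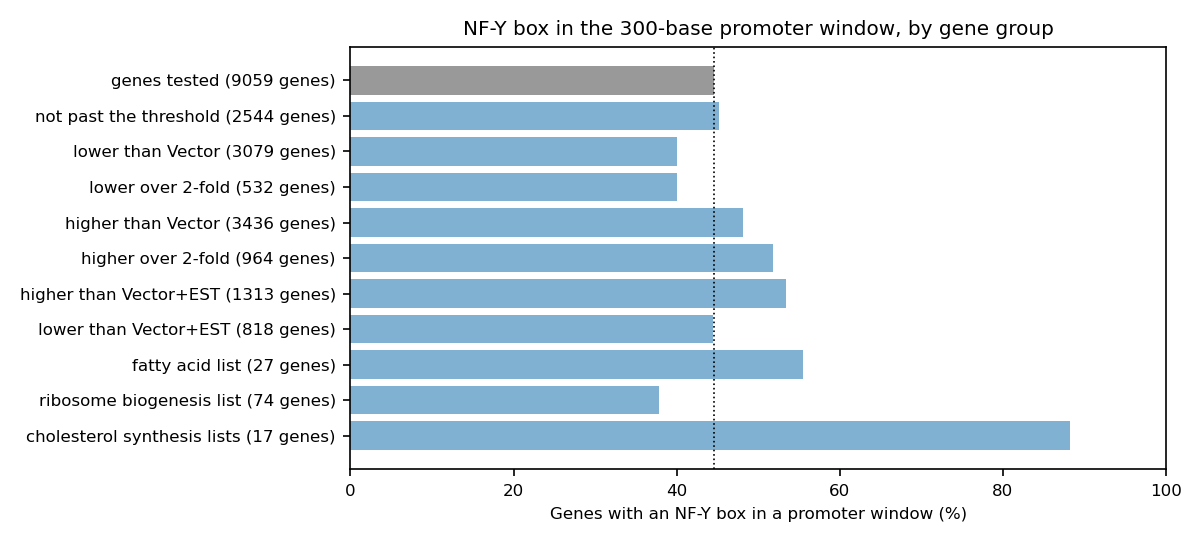
Share of genes with at least 1 NF-Y box in a promoter window of 300 bases, in percent, by gene group, with the number of genes in each group and a dotted line at the share over all tested genes (44.5%). The cholesterol synthesis lists reach 88.2%, genes higher than Vector+EST 53.5%, and genes lower than Vector 40.01%.

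The direction of change also varied with the make of the genes. Of the tested genes, 10905 (97.6%) had a transcript length and GC content. Split by length into 4 groups of equal size, the longest group had 44.6% higher and 28.5% lower, and the shortest 32.6% and 35.3%. Split likewise by GC content, the lowest group had 43.0% higher and 28.8% lower, and the highest 30.5% and 42.6%. Genes lower over 2-fold made up 3.45% of the group with the lowest GC content and 11.1% of that with the highest, and genes higher over 2-fold 8.51% and 11.7%. Genes of the X chromosome, 380 tested, were 46.8% higher and 23.4% lower, against 37.7% and 33.8% over all tested genes and 35.6% and 39.02% on chromosome 8. Among genes at an average of at most 1 log2 CPM, 17.7% were higher and 12.2% lower over 2-fold, and among those above 7 log2 CPM 11.1% and 2.23%.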

How the data were processed

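Poly(A) RNA of 12 libraries, 3 in each of Vector, SREBP2, Vector+EST and SREBP2+EST, was sequenced as single-end reads. The values deposited by the authors are estimated counts, unnormalized, of which 66.5% are whole. The submitters' processing notes name HISAT2 2.0.4, Bowtie2 2.2.5, RSEM 1.2.12, DESeq2 1.4.5 and the build GRCm38.p6. Whether counting used strand is not given in the sources used here, so overlapping and antisense genes are uncertain. A second deposited file, not used here, holds the authors' own results per transcript for 4 pairs of groups: log2 fold changes, p-values and adjusted p-values.

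Counts were rounded and filtered with filterByExpr of edgeR 4.0.16 in R 4.3.3, which left out 6033 genes. After TMM scaling (trimmed mean of M values), SREBP2 was compared with Vector and with Vector+EST by edgeR's quasi-likelihood F-test, with 1 mean per group and all 12 libraries in 1 fit. Adjusted p-values are those of Benjamini and Hochberg over all tested genes, with a threshold of 0.05. The error of a log2 fold change is a standard error (the value over the square root of F), and levels are CPM after TMM scaling as mean ± SD (n = 3). The procedure was run on simulated data in which far fewer genes changed than here, evenly up and down. That run does not check the scaling where most genes change.

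Genes and gene lists were chosen with earlier results of these data known, so no list carries a test. Named genes are all members of the lists for cholesterol, fatty acids, globins, heme and erythroid factors. Of each other list they are up to 3 rises and 3 falls, the largest past the threshold at an average of at least 3 log2 CPM and without overlap between the groups. Over all genes they are the 15 largest rises and falls by the same criteria and the 10 largest each way by difference in CPM, plus Srebf2, Gata1, Gata2, Nfe2, Actb and Gapdh. Not every one is described, some are not reported here, and cell type markers are named beside them.

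Alternatives were DESeq2 1.42.0, RLE scaling (relative log expression), scaling by library totals, no filter, a minimum of 10 counts in every library compared, a fit of only the 6 compared libraries, leaving out each library, the column number as a replicate block, and other fold criteria. Leaving out Vector+EST libraries, and list counts against Vector+EST with 1 library left out, were added after seeing the data. Column numbers 1 and 5 occur in both groups, and the deviations of libraries with the same number had correlations of -0.00 and -0.05 across genes, so the numbers were not taken to pair them.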

Additional observations from a re-analysis of the deposited data

How the results depend on the processing

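Against the 7987 changed genes, the alternatives gave 7176 with the replicate block to 8017 with scaling by relative log expression. Leaving out 1 library gave 7563 to 7846, and DESeq2 gave 7637. With the replicate block, which rests on a shared column number and no stated pairing, 3793 genes were higher and 3383 lower. A fold criterion of 1.5 in place of 2 gave 3722 changed genes (2175 higher, 1547 lower), and one of 4 gave 484 (328 and 156). The number of genes lower than in Vector+EST, 1002, was 1870 with library totals only, 513 with the replicate block and 586 to 1414 with 1 library left out. It was 1414 without SREBP2 1, 595 without SREBP2 3, and 586, 603 and 650 without Vector+EST 1, 3 and 5, and the cause was not tested. Ern1 turned from 0.02 against Vector+EST, not past the threshold, to -0.17 without SREBP2 1 (edgeR adjusted p = 0.0224), and ranged up to 0.12 with another library left out. Of 461 named genes compared with Vector, none changed direction while past the threshold and 15 changed sides of it in at least 1 alternative, among them Acacb, Cpox, Dgat1, Fads1, Fads2, Fech, H2aj, Hacd2, Hbb-b1, Hbb-bh1, Ikzf1, Scd3, Scd4 and Tmem97. The median of 13 of 61 lists changed sign under some alternative, all with a size of at most 0.11. At these depths 3 counts mark the floor, which covers counting error only.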
